A study of Mus musculus with 9 samples.

Results

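Cytokines are the secreted proteins through which eosinophils and other myeloid cells act on their neighbours, and the 10 genes described here encode effector cytokines that these cells are known to make. They are the interleukin genes Il4, Il13, Il6, Il10, Il12a and Il12b, the macrophage growth factor gene Csf1, the oncostatin M gene Osm, the transforming growth factor gene Tgfb1 and the macrophage migration inhibitory factor gene Mif. All 10 were measured. They were found by their symbols among 19938 genes, and 12 of 35557 probe sets of the array carried 1 of these symbols. Each gene had 1 probe set except Mif, which had 3.

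The cultures were low-density bone marrow cells, which are rich in progenitors, from pooled Balb/c marrow. All groups first spent 4 days in SCF (stem cell factor) and FLT3L (FLT3 ligand), each at 100 ng/mL. The first group was harvested before interleukin 5 (IL-5), the cytokine that drives eosinophil formation, and the others after 4 and 10 days of IL-5, with 3 Affymetrix mouse gene arrays at each time and 9 in all. The study asked which genes change under IL-5. The labels do not say whether the arrays of a group came from separate cultures, so p-values measure no more than the spread of these arrays, and part of it may be technical. Cultures of equal age that never received IL-5 are not analysed here, and the effect of IL-5 and of time in culture cannot be told apart. The labels do not say whether stem cell factor and FLT3 ligand were kept once IL-5 was added.

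Interleukin 4 and interleukin 13 are the type 2 cytokines, made by eosinophils, basophils, mast cells and T cells, and they signal through receptors that share the IL-4 receptor alpha chain. Interleukin 12 is a dimer of the products of Il12a and Il12b, made mainly by dendritic cells and macrophages. Csf1 drives the survival and growth of macrophages, oncostatin M and interleukin 6 signal through the shared gp130 chain, and interleukin 10 and TGF-beta restrain inflammation. In eosinophils several of these proteins are known to be stored in granules, so the mRNA level need not follow the amount of protein.

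The stretches of 250 bases before the annotated start of 4 of these genes are shown because Csf1, Il4 and Il13 stood highest at day 10, and Il12b at day 4 alone. Osm also stood highest at day 10, but its promoter and that of Il10 were not among those available. The 4 stretches were taken from RefSeq promoters of GRCm38.p6, whose table held 8 of the 10 genes. Each is written 5′ to 3′ on the gene's own strand, and capitals mark matches, on either strand, to the letters searched.
Csf1 (chr3:107760470-107760719, minus strand): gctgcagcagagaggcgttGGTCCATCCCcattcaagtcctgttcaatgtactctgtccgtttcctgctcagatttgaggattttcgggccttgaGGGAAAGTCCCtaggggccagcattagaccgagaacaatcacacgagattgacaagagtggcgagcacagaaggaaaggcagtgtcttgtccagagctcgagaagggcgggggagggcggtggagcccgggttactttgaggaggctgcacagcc
Il4 (chr11:53618666-53618915, minus strand): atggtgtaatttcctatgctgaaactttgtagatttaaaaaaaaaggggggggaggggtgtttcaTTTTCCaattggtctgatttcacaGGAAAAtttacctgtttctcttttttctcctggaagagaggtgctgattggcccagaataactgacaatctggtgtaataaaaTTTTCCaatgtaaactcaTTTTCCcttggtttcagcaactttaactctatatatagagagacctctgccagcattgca
Il13 (chr11:53634703-53634952, minus strand): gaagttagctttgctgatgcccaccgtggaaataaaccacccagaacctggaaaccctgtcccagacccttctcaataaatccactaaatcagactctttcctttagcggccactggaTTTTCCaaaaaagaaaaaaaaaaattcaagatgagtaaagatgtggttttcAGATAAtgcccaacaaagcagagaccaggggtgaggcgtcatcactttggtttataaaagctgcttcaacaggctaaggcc
Il12b (chr11:44399813-44400062, plus strand): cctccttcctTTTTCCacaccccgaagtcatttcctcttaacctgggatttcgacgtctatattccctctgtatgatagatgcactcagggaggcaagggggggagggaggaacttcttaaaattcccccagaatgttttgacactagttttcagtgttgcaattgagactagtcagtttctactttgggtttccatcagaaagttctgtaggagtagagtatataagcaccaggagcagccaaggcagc

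The letters searched were AGATAA for GATA factors, GGAAAA for NFAT, GGGA and CC 4 bases apart for NF-kB, TTCNNNGAA for STAT factors and TGANTCA for AP-1, where N is any base. Il4 held 4 matches to the NFAT letters, Il13 held 1 and Il12b held 1, and 20.4% of the 32851 promoter windows of this length held at least 1. Csf1 held 3 matches to the NF-kB letters, of which the last 2 overlap, against 17.6% of windows with a match. The GATA letters were found once, in Il13, and in 9.99% of windows. The STAT and AP-1 letters, present in 7.02% and 6.75% of windows, were in none of these 4 stretches, nor was any of the 5 in the same stretch of Il12a. These are matches of letters and say nothing about binding. Il4 and Il13 are direct neighbours on chromosome 11, with 0 annotated genes between them.

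Values are log2 signals as deposited, so a difference of 1 is 2-fold. A gene is said to rise or fall when it passed limma's test at an adjusted p below 0.05, over all 19938 genes, with a change of 2-fold or more, and means carry the SD of 3 arrays. By day 4 of IL-5, 5 of the 10 genes passed, and 5.53% of all genes did. Il12b, Csf1 and Osm rose (3 genes, 3.42% of all genes), and Il12a and Mif fell (2 genes, 2.11% of all genes). At day 10 the count was again 5, against 14.2% of all genes, with Csf1, Il4 and Osm higher (4.83% of all genes) and Il12a and Mif lower (9.4%). Between day 4 and day 10, 4 of 10 passed against 6.42% of all genes: Csf1 and Il4 rose (2.44% of all genes), and Il12a and Il12b fell (3.98%). With no minimum fold the counts were 5, 6 and 6 of 10, against 31.5%, 42.3% and 31.9% of all genes. The 2 comparisons with the cells before IL-5 share those 3 arrays. The median log2 change of the 10 genes was 0.13 by day 4, 0.05 by day 10 and 0.03 from day 4 to day 10, against -0.11, -0.07 and 0.02 over all genes. Their median absolute change was 0.789, 1.14 and 0.639 log2 units, against 0.211, 0.258 and 0.21 over all genes. The 10 genes were chosen with earlier results of these data known. The values over all genes therefore give a scale and are no test of enrichment.

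**Figure D1:**
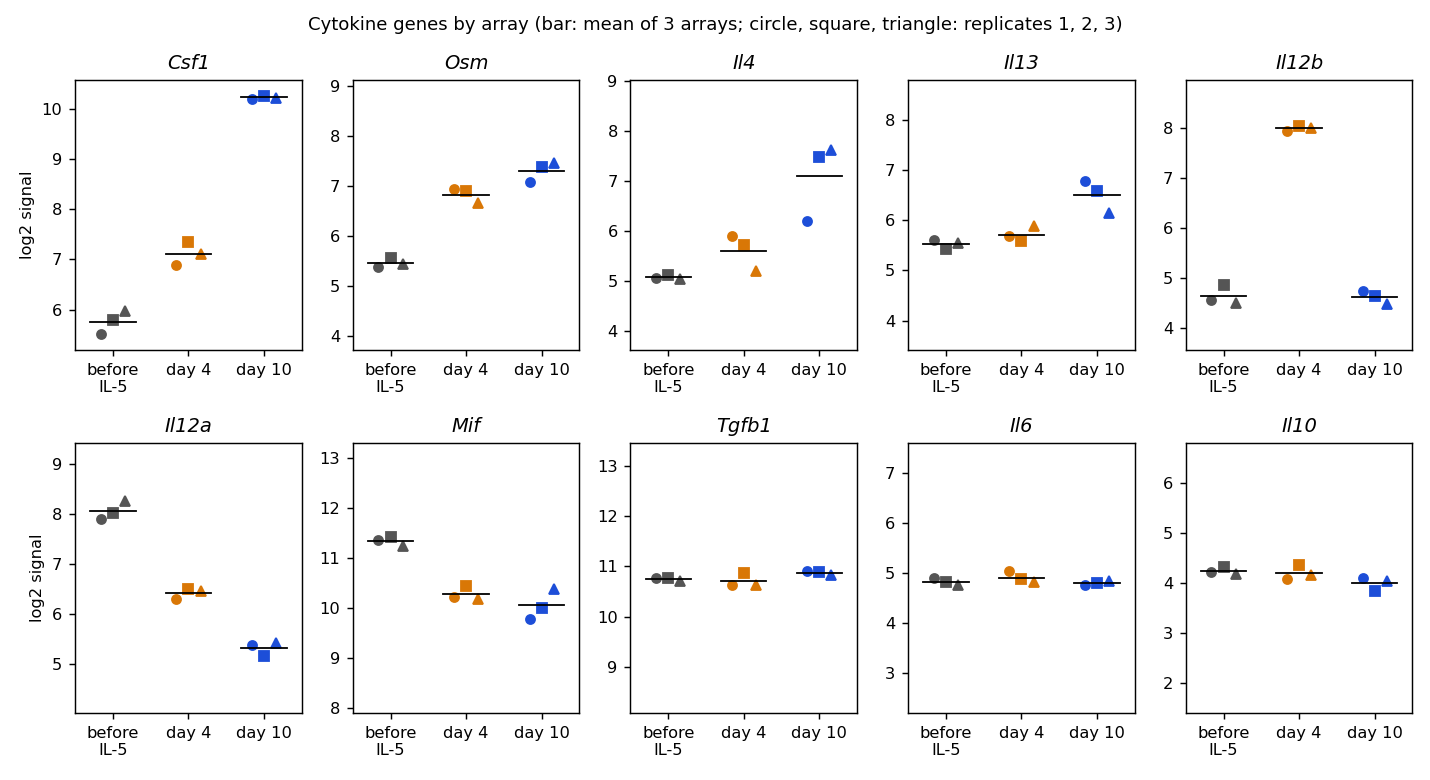
Log2 signal of each of the 10 cytokine genes (vertical axis) at the 3 times; points are single arrays and bars the mean of 3. Csf1 climbs to 10.24 at day 10, Il12b stands high at day 4 alone (7.99), Il12a steps down to 5.33, and Tgfb1, Il6 and Il10 pass in no comparison.

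Csf1 showed the largest rise of the 10. Its signal was 5.51, 5.79 and 5.98 before IL-5, 6.89, 7.35 and 7.10 at day 4, and 10.21, 10.27 and 10.23 at day 10. Each time stood above the one before with no overlap of arrays, and the day 10 arrays were almost alike. The rise was 2.56-fold by day 4 (log2 change 1.36, SE 0.139, adjusted p = 9.17e-06) and 22.3-fold by day 10 (log2 change 4.48, adjusted p = 7.68e-11). From day 4 to day 10 alone it was 8.72-fold (adjusted p = 4.79e-09). The SD of Csf1 at day 10, 0.032, stood at percentile 4.79 of all genes.

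The gene of the Csf1 receptor, Csf1r, rose from 9.67, 9.82 and 9.59 to 10.95, 10.92 and 11.17 at day 4 (log2 change 1.32, adjusted p = 5.75e-06). At day 10 it read 10.47, 10.32 and 10.76, which was 0.82 above the cells before IL-5 and under 2-fold. The ligand was thus highest at day 10 and the receptor at day 4. Il34, the other known ligand of this receptor, lay between 5.42 and 5.90 on all 9 arrays and did not pass in any comparison. Among the 3374 other genes whose group means spanned at least 1 log2 unit, those most like Csf1 over the 9 arrays were Numb, Nsd3 and the IL-5 receptor gene Il5ra, with Pearson coefficients of 0.9987, 0.9983 and 0.9978. These coefficients, like those below, rest on 9 arrays in 3 groups and describe likeness only. Il5ra went from 5.23 through 6.39 to 9.50.

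Osm, which encodes a cytokine of the interleukin 6 family and is a known STAT5 target gene, rose early. The arrays read 5.39, 5.57 and 5.45 before IL-5, 6.94, 6.90 and 6.66 at day 4, and 7.09, 7.39 and 7.46 at day 10. Neither day overlapped the cells before IL-5. The rise was 2.58-fold by day 4 (log2 change 1.37, SE 0.122, adjusted p = 3.12e-06) and 3.60-fold by day 10 (log2 change 1.85, adjusted p = 6.07e-08). From day 4 to day 10 the difference was 0.48 with no overlap (adjusted p = 0.00827), which is under 2-fold. The genes most like Osm were Ago4 (0.9952), the urokinase receptor gene Plaur (0.9927) and Ddx60 (0.9909).

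The type 2 cytokine genes stood highest at day 10. For Il4 the arrays read 5.06, 5.12 and 5.03 before IL-5 and 5.89, 5.71 and 5.20 at day 4. At day 10 they read 6.20, 7.47 and 7.61, so that replicate 1 stood more than 1 log2 unit below the other two and yet above every earlier array. Il4 was 0.53 higher at day 4 without passing (adjusted p = 0.203), although its arrays did not overlap. It rose 4.06-fold by day 10 against the cells before IL-5 (log2 change 2.02, SE 0.293, 95% interval 1.39 to 2.66, adjusted p = 7.11e-05). The rise from day 4 to day 10 was 2.82-fold (adjusted p = 0.00152).

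Il4 was the least even of the 10 genes at day 10. Its SD there was 0.777, above that of 99.7% of all genes, whose median SD was 0.131. Without day 10 replicate 1 the rise from before IL-5 was 2.47, and without replicate 2 or 3 it was 1.83 or 1.76, past the test each time. The mean signal of 8 basophil and mast cell markers ran in the same order over the day 10 arrays, at 7.21, 7.55 and 7.65, and that of the basophil protease gene Mcpt8 at 7.35, 8.02 and 8.60. This order was not particular to them: the means of neutrophil (9.32, 9.69 and 10.1), T and NK cell (5.66, 5.71 and 5.81) and B cell markers (5.19, 5.24 and 5.28) ran alike. Means of eosinophil (12.37, 12.4 and 12.36), macrophage (9.37, 9.06 and 10.04) and dendritic cell markers (6.27, 6.26 and 6.3) did not. Nor did those of erythroid (5.16, 5.37 and 5.29) and of stromal and endothelial markers (6.71, 6.65 and 7.05). Over the times the basophil and mast cell markers went the other way from Il4, with summed linear signals of 4750 to 5440 before IL-5, 3460 to 3940 at day 4 and 1450 to 2010 at day 10. Of these, 4 of 8 fell by day 10, against 9.4% of all genes. Of 10 T and NK cell markers, Cd3d (1.49) and Cd3g (3.21) rose by day 10, against 4.83% of all genes, and 3 fell. Their sums were 670 to 684, 442 to 483 and 646 to 706 at the 3 times. The part of these cells in the Il4 values was not tested. Genes most like Il4 over the 9 arrays were Fas (0.9736), Nradd (0.9653) and Bnip3 (0.9589).

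Il13 read 5.60, 5.43 and 5.55 before IL-5, 5.68, 5.58 and 5.89 at day 4 and 6.79, 6.59 and 6.15 at day 10. The day 10 arrays lay above all others, whereas the earlier times overlapped. At day 10 it stood 0.98 above the cells before IL-5 (SE 0.149, 95% interval 0.66 to 1.31, adjusted p = 0.000105), 1.98-fold and just under the 2-fold limit. It passed at 1.16 without day 10 replicate 3, at 1.02 without replicate 1 before IL-5, at 1.05 after quantile normalization and at 1.03 with array weights. The day 10 array with the lowest Il4 had the highest Il13, and the array with the highest Il4 had the lowest Il13.

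**Figure D2:**
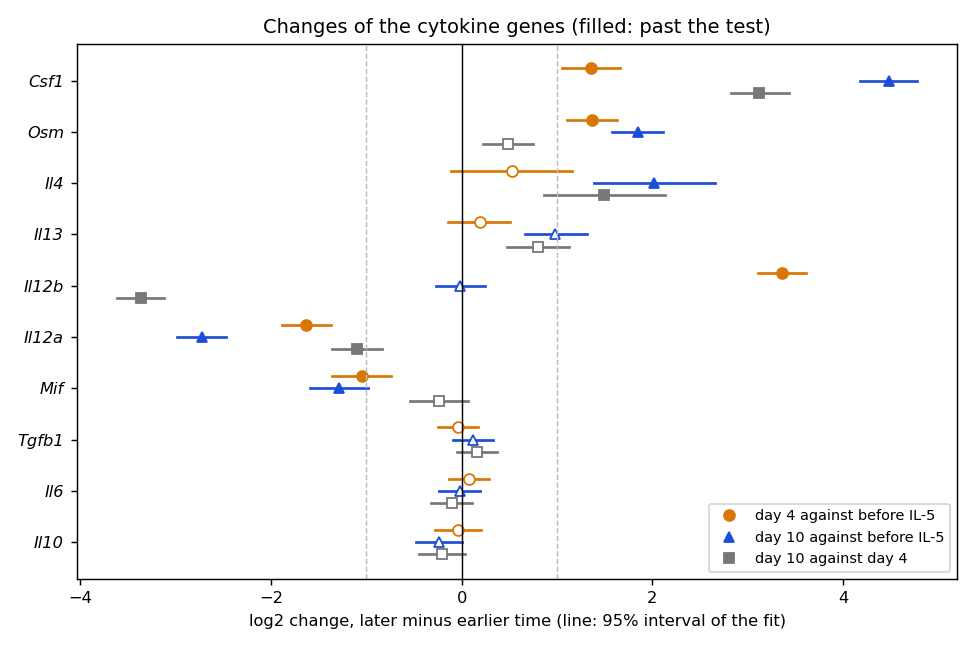
Log2 change (horizontal axis, later minus earlier time) of the 10 genes in the 3 comparisons, with the 95% interval of the fit; filled symbols passed the test and dashed lines mark 2-fold. Csf1 has the largest rise (4.48 by day 10), Il12b has 3.36 by day 4 and -3.37 from day 4 to day 10, and the widest intervals are those of Il4.

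The 2 genes of interleukin 12 went in opposite directions at day 4. Il12b, the subunit shared with interleukin 23, read 4.55, 4.85 and 4.50 before IL-5, 7.93, 8.03 and 8.0 at day 4, and 4.73, 4.64 and 4.48 at day 10. The day 4 arrays stood far above the rest, and the times on either side overlapped. It rose 10.2-fold by day 4 (log2 change 3.36, SE 0.115, adjusted p = 1.49e-09) and fell 10.3-fold from day 4 to day 10 (log2 change -3.37, adjusted p = 7.61e-10). Day 10 against the cells before IL-5 gave -0.02, with a 95% interval from -0.27 to 0.24.

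Il12a, the other subunit, fell at each step. Its arrays read 7.89, 8.02 and 8.26 before IL-5, 6.30, 6.50 and 6.46 at day 4, and 5.38, 5.17 and 5.42 at day 10, with no overlap between any 2 times. The log2 change was -1.63 by day 4 (SE 0.12, adjusted p = 5.85e-07), -2.73 by day 10 (adjusted p = 1.75e-09) and -1.10 between them (adjusted p = 1.43e-05). Il12b was thus highest at day 4, when Il12a was already below its level before IL-5.

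Both subunits have other partners. Il23a, which pairs with the Il12b product in interleukin 23, read between 4.03 and 4.45 on all arrays, below the lower quartile of gene means (4.66), and passed in none of the comparisons. Ebi3, whose product pairs with that of Il12a or of Il27, read 8.07, 8.18 and 8.06 before IL-5 and 9.49, 9.40 and 9.50 at day 10, a rise of 1.36 (adjusted p = 1.04e-07). At day 4 Ebi3 stood 0.63 higher, under 2-fold, and Il27 lay between 6.01 and 6.64 throughout without passing.

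Dendritic cell markers moved beside Il12b in part. Their summed linear signal over 10 genes was 2380 to 2520 before IL-5, 6190 to 6620 at day 4 and 899 to 963 at day 10. By day 4, 5 of 10 rose (3.42% of all genes), and from day 4 to day 10, 7 of 10 fell (3.98%). The homing receptor gene Ccr7 rose by 3.18, Cd83 by 2.37, Siglech by 2.13, H2-Ab1 by 1.30 and the chemokine gene Ccl22 by 3.28 at day 4. The other markers did not pass at day 4: Itgax (0.89), Batf3 (0.27), Zbtb46 (0.23), Xcr1 (0.12) and Flt3 (-0.09). The gene most like Il12b over the 9 arrays was Ccl22 (0.9968), itself 1 of the 10 markers. Next came Apod (0.9957) and Fscn1 (0.9934), which encodes an actin bundling protein of mature dendritic cells. Ccl22 went from 5.10 through 8.38 to 4.93. In these bulk samples, fewer cells of a type and less RNA per cell cannot be told apart, and the part of dendritic cells in the Il12b values was not tested.

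**Figure D3:**
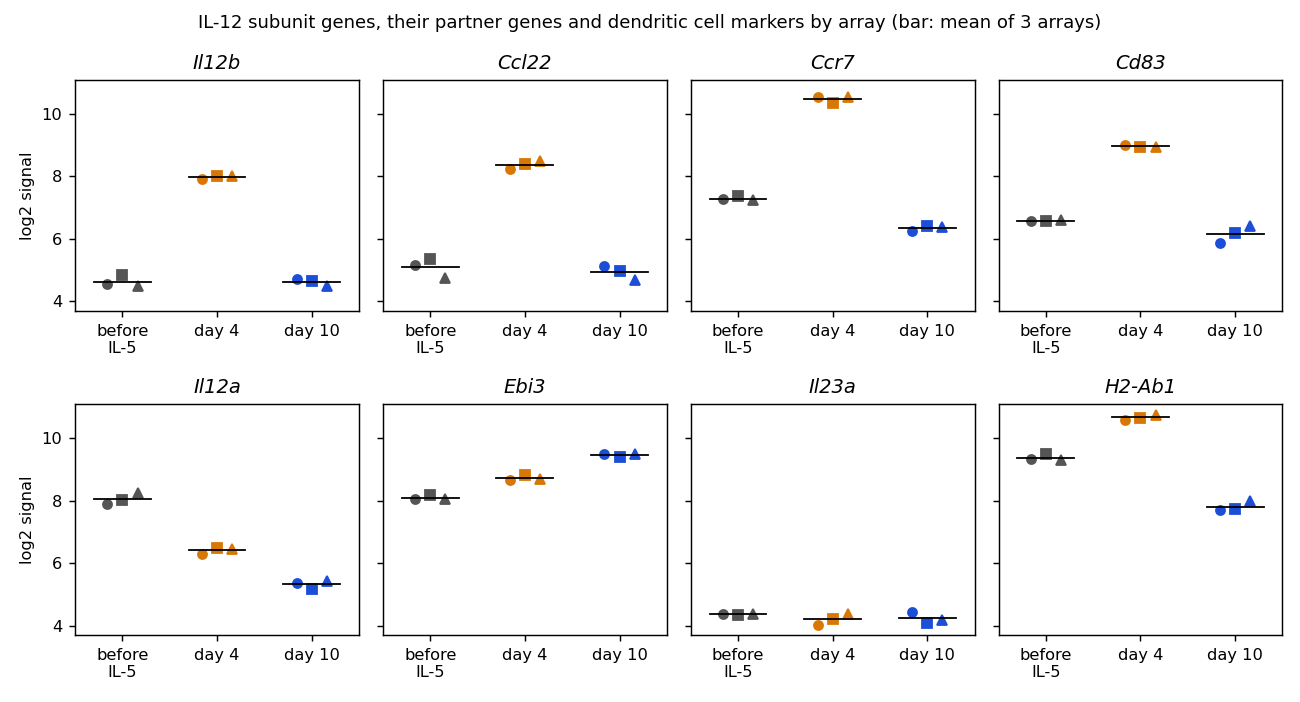
Log2 signal by array (vertical axis) of the interleukin 12 subunit genes Il12b and Il12a, the partner genes Ebi3 and Il23a, and the dendritic cell markers Ccl22, Ccr7, Cd83 and H2-Ab1; bars are means of 3 arrays. Il12b and the 4 markers shown, all among the 5 of 10 that rose, are highest at day 4. Il12a is highest before IL-5 and Ebi3 at day 10.

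Il12a was most like Bbs12 (0.9977), the B cell and lymphoid repressor gene Bach2 (0.9972) and the splicing gene Sf3b3 (0.9967). Bach2 went from 7.52 through 6.33 to 5.45. Markers of B cells fell in 6 of 6 by day 4 and by day 10, against 2.11% and 9.4% of all genes. Their summed linear signal was 2270 to 2420, then 467 to 570, then 228 to 247. This was not particular to B cells. Erythroid markers fell in 5 of 5 on both days, with sums of 2220 to 2400, 230 to 290 and 207 to 232. The part of these cells in the fall of Il12a was not tested.

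Mif, a cytokine that most cell types make, fell. On the brightest of its 3 probe sets the arrays read 11.37, 11.42 and 11.24 before IL-5, 10.23, 10.45 and 10.19 at day 4, and 9.78, 10.01 and 10.38 at day 10. Both days lay below the cells before IL-5, and they overlapped each other. The log2 change was -1.05 by day 4 (SE 0.142, adjusted p = 9.31e-05) and -1.29 by day 10 (adjusted p = 6.25e-06), while day 10 against day 4 gave -0.24 (adjusted p = 0.245). The other two probe sets gave -1.12 and -1.09 by day 4 and -1.27 and -1.28 by day 10. All 3 carry the same accessions and RefSeq lists 7 Mif pseudogenes, so near-identical copies may share this signal and the identity of each probe set is uncertain. The call at day 4 was lost at -0.93 after quantile normalization and, at the 2-fold limit, without day 4 replicate 3 (-1.0). Ddt, the closest relative of Mif, stood 0.88 lower at day 10 without passing, and passed at -1.02 without day 10 replicate 2. Genes most like Mif were Las1l (0.9892), Gtf3c4 (0.9887) and Tspan6 (0.9869).

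Tgfb1, Il6 and Il10 did not pass in any comparison. Tgfb1 was bright throughout, at 10.76, 10.77 and 10.71 before IL-5, 10.63, 10.86 and 10.64 at day 4 and 10.90, 10.88 and 10.83 at day 10. Its day 10 arrays lay above those before IL-5 by 0.12, with a 95% interval from -0.09 to 0.33. Il6 lay between 4.76 and 5.04 on all arrays, close to the lower quartile of gene means, with changes of 0.08 at day 4 and -0.02 at day 10. Il10, whose mean of 4.14 was below that quartile, lay between 3.83 and 4.35, and at day 10 it differed by -0.24 (adjusted p = 0.0989). No detection calls were used, so for Il6 and Il10 the values do not show whether any mRNA was present.

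Arrays of the compared times did not overlap for 6 of the 10 genes in the day 4 comparison (43.6% of all genes). The count was 8 for day 10 against the start (49.7%) and 6 for day 10 against day 4 (44.2%).

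Receptor genes of these cytokines changed mostly upwards first and downwards later. At day 4, 6 of 19 measured receptor genes rose, the median change being 0.52 against -0.11 over all genes, and 3.42% of all genes rose. They were the leukemia inhibitory factor receptor Lifr (1.94), Cd74, the surface receptor of Mif (1.74), Il10ra (1.43), Csf1r (1.32), Il13ra1 (1.32) and Il10rb (1.10). Lifr was on the list of receptors, although Lif is not 1 of the 10 cytokine genes. Beside these receptor genes, 7 of 7 macrophage markers, a list that includes Csf1r, and 5 of 10 dendritic cell markers rose at day 4. Cd74 is also the invariant chain of MHC class II, and the class II gene H2-Ab1 rose by 1.30 at day 4 and fell by 2.86 from day 4 to day 10. The part of these cells in the receptor values was not tested. By day 10 against the cells before IL-5, Cxcr2 (1.48), Cd44 (1.24) and the TGF-beta receptor Tgfbr2 (1.16) rose, while Il6st (-2.32) and Il6ra (-1.39) fell, at a median of 0.04. Over all genes 4.83% rose and 9.4% fell at that time. From day 4 to day 10, 5 of 19 fell (3.98% of all genes did), namely Il6st (-3.20), Cd74 (-2.61), Lifr (-2.00), Il13ra1 (-1.74) and Il6ra (-1.69).

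Il6st encodes gp130, through which both oncostatin M and interleukin 6 signal. It read 9.74, 9.77 and 9.77 before IL-5, 10.51, 10.69 and 10.73 at day 4, and 7.08, 6.95 and 8.29 at day 10. The day 10 arrays were the lowest and replicate 3 stood apart from the other two. Osmr, which pairs with gp130 for oncostatin M, lay between 3.94 and 4.43 on 8 arrays and at 5.62 on day 10 replicate 3. The mean of Osmr over the 9 arrays, 4.33, was below the lower quartile of gene means (4.66). By group mean, Osm itself was thus highest at day 10, when Il6st was lowest. Among the day 10 arrays, however, replicate 3 had both the highest Osm (7.46) and the highest Il6st (8.29). Macrophage markers were also highest in that array among those of day 10, with means over 7 genes of 9.37, 9.06 and 10.04. The same array was highest for neutrophil markers, as given above, and for 6 stromal and endothelial markers (6.71, 6.65 and 7.05). The part of these cells in the Il6st and Osmr values was not tested. Il4ra, the chain shared by the receptors for interleukin 4 and interleukin 13, did not pass at day 4 (0.52) or at day 10 (0.25).

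**Figure D4:**
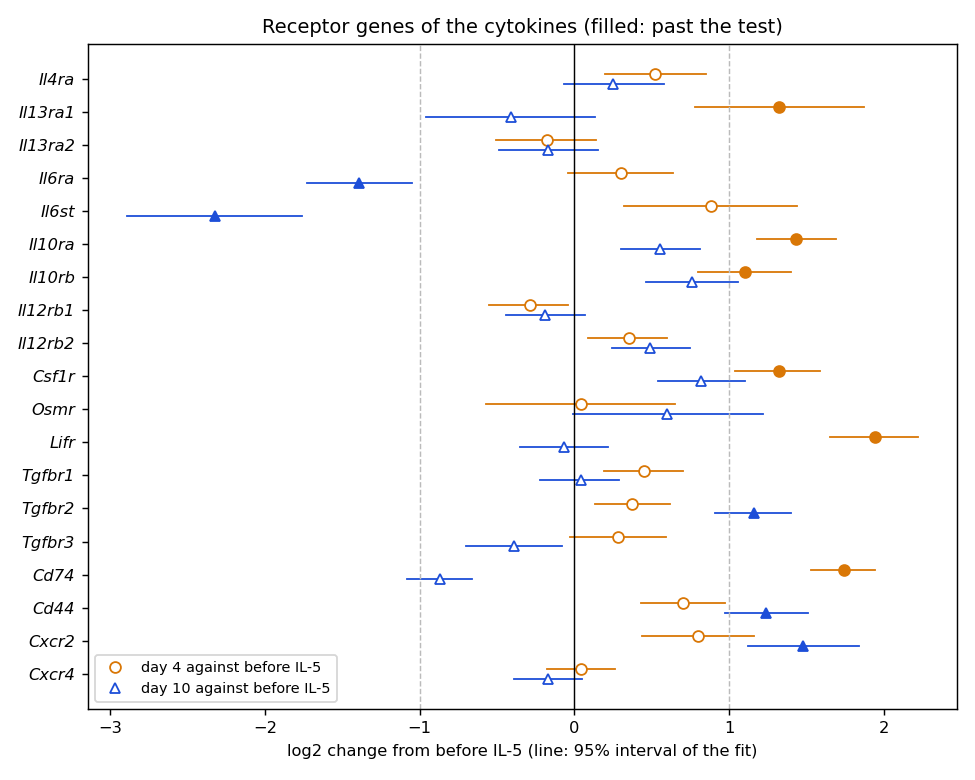
Log2 change from before IL-5 (horizontal axis) of 19 receptor genes of the cytokines at day 4 and day 10, with the 95% interval of the fit; filled symbols passed the test and dashed lines mark 2-fold. At day 4 6 genes rose, led by Lifr (1.94), and at day 10 3 rose and 2 fell, with Il6st at -2.32.

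Of 19 measured relatives and partner ligands, limma called none at day 4 or between the days, and 4 and 6 had an unadjusted p under 0.05. By day 10 Ebi3 alone rose, and Ddt fell besides when day 10 replicate 2 was left out. The other cytokine genes of type 2 responses on the list, Il5, Il3, Il9 and Csf2, lay between 3.12 and 5.26 without passing. Lif stood 0.61 higher and Tgfb3 0.89 lower at day 10, under 2-fold.

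Factors known to act on cytokine genes changed in both directions. At day 4, 5 of 23 rose, against 3.42% of all genes: Fos (3.30), Maf (1.84), Relb (1.82), Rel (1.30) and Junb (1.06). The NF-kB genes Rel and Relb, known activators of Il12b, were also highest at day 4. They fell from day 4 to day 10, Rel by 1.18 and Relb by 2.09. Interferon regulatory factor Irf8, another known activator of Il12b, stood 0.76 higher at day 4, under 2-fold, and fell by 2.96 after it. Ccr7 and Cd83, among the dendritic cell markers, were highest at day 4 as well. The part of these factors in the Il12b values was not tested. By day 10 Nfil3 (2.05), Gata1 (1.73), Maf (1.42), Cebpb (1.31) and Fos (1.24) rose (4.83% of all genes did). Irf4 (-2.59), Irf8 (-2.20) and Stat4, the transducer of interleukin 12 signals (-1.78), fell (9.4% of all genes did). Gata3, the master factor of type 2 cytokine genes in T cells, stood 0.67 lower at day 10, under 2-fold, and Gata1 read 9.84, 9.81 and 9.89 there against 8.12, 7.92 and 8.31 before IL-5. Of the NFAT genes, Nfatc1 and Nfatc2 each stood 0.73 higher at day 10 without reaching 2-fold.

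Of 14 targets of interleukin 4 and interleukin 13 known from macrophages, 6 rose at day 4, against 3.42% of all genes, and 8 did not pass. Those that rose were Mrc1 (3.69), Ccl22 (3.28), Chil3 (2.45), Tgm2 (1.68), Mgl2 (1.53) and Clec10a (1.30). By day 10, 3 rose and 3 fell, against 4.83% and 9.4% of all genes. Mrc1 (3.63), Retnla (1.85) and Socs1 (1.58) rose, and Mgl2 (-1.44), Clec10a (-1.30) and Chil3 (-1.10) fell. The call of Chil3 was lost without replicate 1 before IL-5 (-0.94) and without day 10 replicate 1 (-0.68), after quantile normalization (-0.98) and with limma's trended, robust variance (adjusted p = 0.0955). Retnla read 3.69, 3.90 and 3.54 before IL-5, 3.31, 3.37 and 3.55 at day 4 and 5.57, 5.59 and 5.52 at day 10, and together with Socs1 it was highest at day 10. Arg1 did not pass, at -0.29 and 0.07. Several of these genes also mark macrophages and dendritic cells, whose summed signals are given here too. The 7 macrophage markers summed to 1900 to 1960 before IL-5, 7880 to 8460 at day 4 and 7290 to 10300 at day 10. From day 4 to day 10, however, Adgre1 alone among these markers rose, by 1.32 (from 10.79 to 12.11). The other 6 did not pass. Of the 7, 5 were lower at limma's unadjusted p under 0.05, among them C1qb (-0.96), C1qc (-0.59) and Csf1r (-0.5).

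Of 10 genes known as targets of interleukin 6, oncostatin M and interleukin 10, 4 rose at day 4, at a median of 0.87. They were Etv3 (2.00), Pim1 (1.16), Bcl6 (1.15) and Junb (1.06), and 3.42% of all genes rose. By day 10 Nfil3 (2.05) and Pim1 (1.87) rose, against 4.83% of all genes. Junb and Nfil3 are also among the factors named above. Whether any of these cytokines acted on the listed genes was not tested. Socs3, the feedback inhibitor of gp130 signals, stood 0.77 higher at day 4 and 0.89 higher at day 10, under 2-fold on both days.

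Around Tgfb1, whose product is secreted in a latent form, most processing and activating genes did not pass either. Of 13 such genes 2 rose at day 4, Mmp9 (1.66) and Mmp14 (1.42), and 2 by day 10. The other 11 were not called each time, at medians over the list of 0.19 and 0.13. Over all genes 3.42% rose at day 4 and 4.83% by day 10. Furin, the protease that cleaves the precursor (2.14), and Mmp9 (2.33) rose by day 10. Furin read 7.85, 7.87 and 7.92 before IL-5, 8.35, 8.45 and 8.39 at day 4 and 10.03, 10.19 and 9.85 at day 10, with no overlap. Among 8 listed target genes Tgfbi rose on both days (1.28 and 1.90) and Ski at day 10 (1.60), and Tgif1 fell by day 10 (-1.03), when 9.4% of all genes fell. That fall was not called when replicate 2 of the first group (-0.99) or day 10 replicate 1 or 2 (-0.95 each) was left out, or after quantile normalization (-0.89). The feedback inhibitor gene Smad7 did not pass, at -0.26 and -0.30. Pmepa1 and Skil stood 0.76 and 0.73 higher at day 4, under 2-fold. From day 4 to day 10 Ski rose (1.41), and Tgif1 (-1.18) and, just past the 2-fold limit, Pmepa1 (-1.01) fell. Over all genes 2.44% rose and 3.98% fell between these days. Skil was 0.79 lower over that time, under 2-fold.

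All 8 eosinophil markers, on a list chosen with earlier results of these data known, rose at day 4 and at day 10. Over all genes 3.42% and 4.83% rose. The summed linear signal of these markers was 2470 to 3060 before IL-5, 26700 to 28300 at day 4 and 56200 to 58900 at day 10. Neutrophil markers summed to 14100 to 16800, 25400 to 27900 and 12200 to 14600 at the 3 times. That sum hides opposite changes among its 8 genes. By day 10 Ly6g (3.77) and Cxcr2 (1.48) rose, and Elane (-3.93) and Mpo (-3.78) fell. Over all genes 4.83% rose and 9.4% fell at that time. Correlations between arrays, across genes, were 0.991 to 0.996 within groups and 0.927 to 0.969 between them.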

How the data were processed

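The members and gene lists were chosen with earlier results of these data known. The authors deposited a log2 signal for each probe set, made, per the submitters' processing notes, with Affymetrix Expression Console 1.1.2637.26569. The sample descriptions, per the labels, name its default gene-level RMA summary, which evens out the arrays' distributions and compresses changes of dim genes. Background settings, annotation release and genome build were not given in the sources used here. Array medians were 5.67 to 5.75. Of 35557 probe sets, 21789 carried 1 symbol, 1621 several and 12147 none. The brightest probe set of each gene was kept, leaving 19938 genes. Groups and replicate numbers came from the titles. The test was that of limma 3.58.1 (R 4.3.3) (9 arrays, 3 group means, 6 residual degrees of freedom), two-sided, with Benjamini-Hochberg adjustment over all genes, and the fit was tested on simulated data. No filter on low values was used. Named genes were the 10 cytokine genes, genes of the fixed lists, and the 3 most correlated genes of each cytokine gene spanning at least 1 log2 unit. Alternatives were leaving out each array, a replicate block, 2 scalings, a filter on dim genes, probe set medians, other variance models, array weights and no minimum fold. The number of arrays limits precision.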

Additional observations from a re-analysis of the deposited data

Results flagged for a closer look

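For 4 cytokine genes the change from before IL-5 differed between day 10 and day 4 by at least 2-fold with limma's adjusted p under 0.05. Because both changes share the arrays before IL-5, this is the comparison of day 10 with day 4 already reported, and no separate evidence. The difference was 3.12 log2 units for Csf1, 1.49 for Il4, -1.10 for Il12a and -3.37 for Il12b. Il13 (0.80, adjusted p = 0.00108) and Osm (0.48, adjusted p = 0.00827) also passed the adjusted p, under 2-fold.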

How the results depend on the processing

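Each of the 3 counts of cytokine genes called stayed within 1.5 times of the reported one under every alternative run: 4 or 5 for day 4, 5 or 6 for day 10, and 4 from day 4 to day 10, or 6 with no minimum fold. With no minimum fold, 6279 genes of all passed by day 4, 8440 by day 10 and 6364 from day 4 to day 10. Of the members' changes under the alternatives, 501 kept their side of the threshold, 4 newly passed and 2 no longer passed, and these were those given for Mif and Il13. Changes of Il10, Tgfb1, Il6 and Il12b near 0 that did not pass changed sign in 9 repeats. The filter on dim genes removed Il10. The replicate block left the counts of cytokine genes at 5, 5 and 4, and the same-numbered arrays did not deviate together (correlations from -0.119 to 0.0773). The numbers in the sample descriptions differ from those in the titles, so no pairing was assumed. What limits Il6 and Il10 is a signal near or below the lower quartile of gene means.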
